A study of Mus musculus with 18 samples.

Results

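The comparison described here is that of invariant natural killer T (iNKT) cells at developmental stage 2 (S2) between mice that lack the kinase MST1 in T cells (labelled Mst1KO) and wild-type (WT) mice. Its members are the 3 arrays titled Mst1KO_S2 and the 3 titled WT_S2, 6 of the 18 arrays of the series, and they were compared over 13034 genes, each read from its brightest probe set that carries a single gene symbol. All mice were C57BL/6, and the Mst1KO mice were Cd4CreMst1fl/fl, which means that Cre driven by Cd4 removes a floxed stretch of Mst1 (gene symbol Stk4) in cells of the T lineage from the stage when thymocytes turn on Cd4. The WT mice carry no other allele in the labels, so an effect of Cre itself and one of the deletion cannot be told apart here, and the age of the mice was not given in the sources used here. S2 cells were sorted from the thymus as TCRb+, CD1d-PBS57 tetramer+, CD24-, CD44+ and NK1.1- cells, after a CD8 microbead step. The design counts 3 WT and 3 Mst1KO mice over all stages, but the labels do not tie an array to a mouse, so the p-values measure the spread between arrays. RNA of 1 to 20 ng was amplified and hybridised to Affymetrix MoGene-2_0 arrays, and every level below is a log2 value made by robust multi-array averaging (RMA), on which a difference of 1 is a doubling of signal.

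MST1 is a serine-threonine kinase of the Hippo pathway, in which MST kinases act through LATS kinases on YAP and TAZ. In lymphocytes it is also known to act with RASSF5 and DOCK8 on integrin adhesion and migration, and its loss causes T cell lymphopenia in mice and people. iNKT cells carry an invariant T cell receptor that recognises lipids on CD1d, and they mature in the thymus under the factor PLZF (gene Zbtb16). The NK1.1- CD44+ gate of S2 is known to hold a mixture: NKT2 cells that make interleukin 4 (IL-4), NKT17 cells that make IL-17, and precursors of the NKT1 cells that later express T-bet, NK receptors and interferon gamma.

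Cells of this mixture were measured in bulk, so fewer cells of a subset and less RNA per cell cannot be told apart in any value below. Levels of one gene are listed by replicate number 1, 2 and 3, and replicates have no order. Differences are Mst1KO minus WT, given with the standard error (SE) of a limma model with n = 3 arrays a genotype. Adjusted p-values are limma's after Benjamini-Hochberg adjustment over the 13034 genes, and a gene was called, or is said to rise or fall, at an adjusted p under 0.05.

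The sequences below belong to genes among those that changed most, and are shown because factors of the pathways named in the results are known to read such letters. The 250 bases before the annotated start were searched on both strands for 8 motifs: AGGTCA (the half-site of ROR and REV-ERB receptors), CACGTG (E-box), TGANTCA (AP-1), AGGTGT (T-box), GGAATG (TEAD), TTCNNNGAA (STAT), the 10-base interferon-stimulated and NF-kB elements, none of which contains another. Windows and builds are RefSeq's for GRCm38.p6, and only 115 of the 152 genes called at S2 (75.7%) have a window in the table, so no count over the called genes was made. Ccr6, on chr17:8235793-8236042 (plus strand), is the chemokine receptor of NKT17 cells and was higher in Mst1KO. Its window held AGGTCA on the opposite strand, in capitals, starting 44 bases before the start site. AGGTCA is in 14% of all 32851 windows. The Ccr6 window also held matches to the TEAD and STAT motifs, which are not marked, and a second annotated Ccr6 window, chr17:8242276-8242525, held none of the 8 motifs. The windows of Xcl1 and Nr1d1 held none either.
Ccr6: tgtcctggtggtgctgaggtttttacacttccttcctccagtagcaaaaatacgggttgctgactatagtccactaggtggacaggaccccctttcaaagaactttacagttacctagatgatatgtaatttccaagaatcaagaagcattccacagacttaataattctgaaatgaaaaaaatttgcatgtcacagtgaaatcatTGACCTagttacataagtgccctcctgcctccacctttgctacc
Il12rb2, on chr6:67376189-67376438 (minus strand), encodes the signalling chain of the IL-12 receptor, which acts through STAT4, and was lower in Mst1KO. Its window held TTCNNNGAA, in capitals, 123 bases before the start, a motif found in 7.02% of all windows.
Il12rb2: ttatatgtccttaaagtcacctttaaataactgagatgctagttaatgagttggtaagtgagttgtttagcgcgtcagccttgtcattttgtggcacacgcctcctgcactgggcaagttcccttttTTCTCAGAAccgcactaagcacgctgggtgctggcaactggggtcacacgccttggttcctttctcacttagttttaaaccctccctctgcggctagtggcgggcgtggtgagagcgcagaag
Csf1, on chr3:107760470-107760719 (minus strand), encodes macrophage colony-stimulating factor and was lower in Mst1KO. Its window held the NF-kB element on the opposite strand, in capitals, 154 bases before the start, and 0.356% of all windows hold that motif.
Csf1: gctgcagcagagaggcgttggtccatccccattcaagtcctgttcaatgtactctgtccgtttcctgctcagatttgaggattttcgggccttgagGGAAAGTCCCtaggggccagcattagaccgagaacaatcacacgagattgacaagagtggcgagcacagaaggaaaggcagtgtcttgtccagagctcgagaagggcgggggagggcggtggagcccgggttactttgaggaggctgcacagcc
Each match is a description of the letters and shows neither a bound site nor a cause.

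Mir1929 was the 1 called gene among 169 microRNA genes tested, where 1.17% of all genes were called. Its mature sequences are shown with the seed, bases 2 to 8, in capitals. They lie on chr10:44359692-44359714 and chr10:44359734-44359755 of GRCm38.p6 (plus strand) and share no seed with each other.
mmu-miR-1929-5p: uUCUAGGAcuuuauagagcagag
mmu-miR-1929-3p: cAGCUCAUggagaccuaggugg
The probe set is named for the gene and not for an arm. Mir1929 measured 6.89, 6.10 and 6.93 in WT and 5.22, 5.51 and 5.39 in Mst1KO, a difference of -1.27 ± 0.25 (adjusted p = 0.0192). No Mst1KO array reached the lowest WT array, and the call was lost without WT replicates 1 or 3 or Mst1KO replicates 1 or 3.

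At S2, 152 genes differed between Mst1KO and WT. Among them 7 of 29 NKT17 genes were higher, against 0.714% of all genes. Lower were 5 of 20 cytokines and chemokines and 3 of 25 NKT1 genes, against 0.453% of all genes. These lists were chosen with earlier results of these data known. The NKT1 genes Xcl1 and Ccl5 are also counted among the cytokines and chemokines. The 152 were 1.17% of the 13034 tested: 93 rose in Mst1KO (0.714%) and 59 fell (0.453%). The largest increase was that of Klrb1b, an inhibitory NK receptor (3.53-fold), followed among known genes by Nr1d1, the clock repressor REV-ERBα (2.97-fold), and Ccr6 (2.84-fold). The largest decreases were those of Xcl1, the chemokine lymphotactin (4.53-fold), Akr1c18, a progesterone-degrading reductase (3.96-fold), Il12rb2 (3.91-fold) and Csf1 (3.43-fold). Called differences ran from 0.34 to 2.18 in size with a median of 0.75, and 22 genes rose and 22 fell by at least 1.

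The calls lean on the spread of all 18 arrays and on single S2 arrays. In all 152 called genes the 3 Mst1KO arrays lay apart from the 3 WT arrays, as they did in 16.8% of all genes tested. At an unadjusted p under 0.05, 1741 genes (13.4%) differed. A fit on the 6 S2 arrays alone called 4 genes, with 1426 at an unadjusted p under 0.05, and none was called by limma's test against a 1.5-fold change, where 65 had an unadjusted p under 0.05. Without Mst1KO replicate 1 there were 39 calls, 20 of them higher, and without WT replicate 3 there were 72, 45 of them higher. Without WT replicate 2 the higher calls fell from 93 to 56, and without Mst1KO replicate 2 the lower calls fell from 59 to 32. Of the 152 genes, 27 were called whichever S2 array was left out, among them Klrb1b, Nr1d1, Rnf43, Tmem176b, Tlr1, Irak3, Klf6, Itga4, Map3k14, Adam12, Xcl1, Il12rb2, Csf1, Il4, Matn2 and Ptprb. No called gene changed direction in any alternative. Leaving out 1 S2 array cannot change the direction of a gene whose arrays lie apart, so this adds no support.

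**Figure D1:**
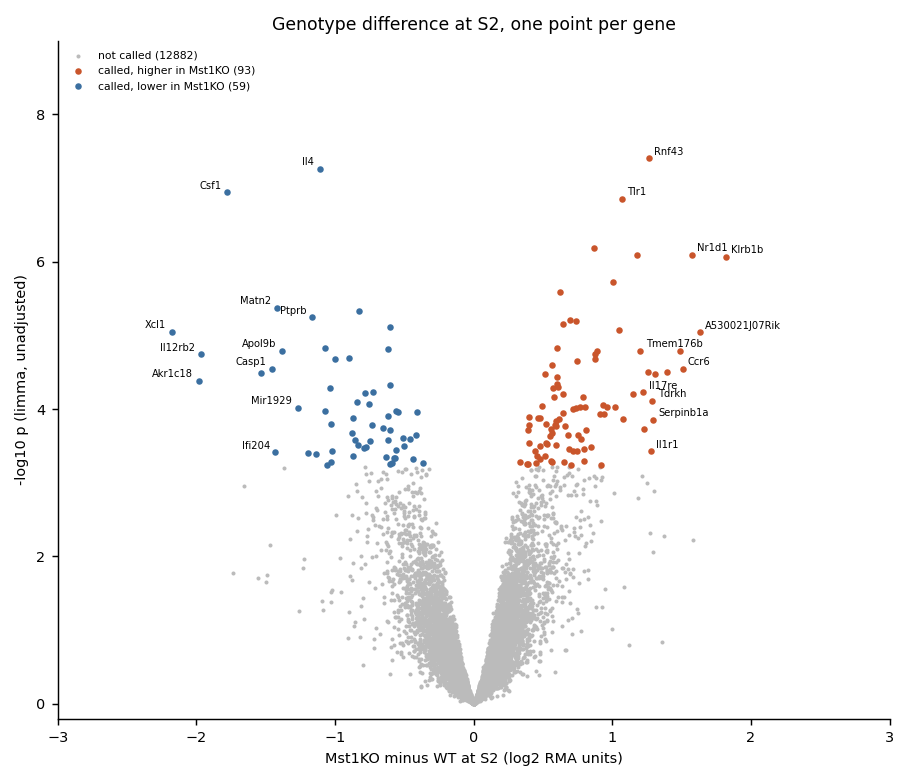
Difference between Mst1KO and WT at S2 in log2 RMA units (x axis) against -log10 of the unadjusted limma p (y axis), 1 point per gene for 13034 genes; orange and blue points are the 93 and 59 genes called higher and lower in Mst1KO. Rnf43, Tlr1, Il4 and Csf1 stand highest on the p axis, while Xcl1, Akr1c18 and Il12rb2 lie farthest to the left and Klrb1b farthest to the right.

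The 6 arrays were alike as a whole. Pearson's r over all 41345 probe sets was 0.976 to 0.978 within WT, 0.977 to 0.981 within Mst1KO and 0.975 to 0.981 between the genotypes. The first principal component of the S2 arrays (31.6% of variance) put the WT arrays at -9.12, -10.3 and -20.2 and the Mst1KO arrays at 17.0, 12.4 and 10.2. WT replicate 3 thus stood apart from the other WT arrays. The array medians at S2 were 4.83 to 4.87, near the signal of genes that are off, so a gene around 5 is dim and its difference compressed: 24 of the 152 called genes had the lower genotype's mean under 5. The defining genes of the cells were bright: Zbtb16 measured 11.48, 11.44 and 11.46 in WT and 11.43, 11.48 and 11.48 in Mst1KO, and Cd3d, Cd3e and Cd3g had means of 11.7 to 12.1. The genes of the sort gate, Cd44 (0.25 ± 0.14, adjusted p = 0.464), Klrb1c, which encodes NK1.1 (-0.34 ± 0.23, adjusted p = 0.592), and Cd24a (0.06 ± 0.19, adjusted p = 0.942), were not called.

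The targeted gene was lower in every Mst1KO array but was not called. Stk4 measured 7.91, 7.73 and 7.83 in WT and 7.54, 7.49 and 7.40 in Mst1KO, a difference of -0.35 ± 0.11 (adjusted p = 0.173). The groups do not overlap. A whole-gene probe set also reads the parts of Stk4 outside the floxed stretch, and its probes were not mapped here, so how far the value tests the labels is not known. The probe sets of its paralogue Stk3 (MST2) did not carry that symbol alone and were not analysed here.

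Of 31 genes listed as typical of NKT17 cells, 29 were tested, and 7 rose and none fell in Mst1KO (24.1%, against 0.714% of all genes higher). The median difference of the 29 was 0.59, against 0.014 over all genes, and 27 of 29 were above 0 (53.4% of all genes). In 18 of the 29 the Mst1KO arrays all lay above the WT arrays, which held for 9.68% of all genes. The list was chosen with earlier results of these data known, so its direction is no independent evidence. The called genes were 3 receptors (Ccr6, Il1r1 and Il17re) and 4 genes of other kinds.

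Ccr6, the receptor for the chemokine CCL20, measured 6.67, 5.88 and 6.43 in WT and 8.26, 7.25 and 7.99 in Mst1KO (difference 1.51 ± 0.26, adjusted p = 0.0102). The lowest Mst1KO array lay above the highest WT array. Il1r1, the IL-1 receptor that helps drive IL-17 production, measured 8.73, 8.17 and 8.0 in WT and 9.95, 9.39 and 9.39 in Mst1KO (1.28 ± 0.29, adjusted p = 0.0388). Il17re, a chain of the IL-17C receptor, measured 7.90, 8.04 and 7.47 in WT and 9.44, 8.77 and 8.87 in Mst1KO (1.22 ± 0.23, adjusted p = 0.0154). Both were highest in Mst1KO replicate 1. Sdc1 encodes syndecan-1, a surface proteoglycan that marks NKT17 cells in the thymus. It measured 7.89, 7.48 and 6.90 in WT and 9.19, 8.39 and 8.59 in Mst1KO (1.30 ± 0.23, adjusted p = 0.0106). Lingo4, a leucine-rich repeat membrane protein, rose by 1.49 ± 0.25 (adjusted p = 0.00785), the protease inhibitor Serpinb1a by 1.29 ± 0.26 (adjusted p = 0.0223) and the membrane protein Tmem176b by 1.20 ± 0.20 (adjusted p = 0.00785), with no overlap of the arrays. Aqp3, a channel for water and glycerol, missed the threshold (0.91 ± 0.22, adjusted p = 0.0508).

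The subset's own cytokines and regulators moved less. Il17a measured 5.62, 4.91 and 5.16 in WT and 4.95, 5.37 and 5.45 in Mst1KO (0.03 ± 0.20, adjusted p = 0.979), and the groups overlap. Il17f was dim, at 4.95, 4.95 and 4.58 against 5.27, 5.68 and 5.32 (0.60 ± 0.20, adjusted p = 0.173). Il23r, the receptor for IL-23, was bright and spread widely, at 10.40, 9.80 and 9.56 in WT and 11.24, 10.82 and 10.71 in Mst1KO (1.00 ± 0.56, adjusted p = 0.48). Its SE comes from all 18 arrays, and the S2 arrays themselves did not overlap. Rora, a nuclear receptor, differed by 0.46 ± 0.18 (adjusted p = 0.251). Without Mst1KO replicate 1, 6 of the 7 calls were lost (Ccr6, Lingo4, Sdc1, Serpinb1a, Il1r1 and Il17re, adjusted p 0.0515 to 0.146), while the median of the list stayed at 0.52. Without WT replicate 3, Serpinb1a, Il1r1 and Il17re were lost (0.0698 to 0.151), without WT replicate 2, Serpinb1a and Il1r1 (0.0741 to 0.117), and without Mst1KO replicates 2 or 3, Il1r1 (0.0651 and 0.0643).

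γδ T cells with an IL-17 program share several of these genes, and 4 of the 11 γδ markers listed could be tested. Cd163l1, a scavenger receptor of IL-17-producing γδ cells, rose (0.64 ± 0.12, adjusted p = 0.0154). It was the 1 call of the 4 (25%, against 0.714% of all genes higher). The summed linear level of the 4 ran from 824 to 1282 in WT and from 1232 to 1733 in Mst1KO, so the ranges overlap. The brightest of the 4 was Blk (means 9.21 and 9.79), a Src-family kinase on both this list and the NKT17 list. Blk differed by 0.58 ± 0.30 (adjusted p = 0.432). The γδ receptor genes were not analysed here, and the part of γδ cells in the NKT17 result was not tested. Leaving out Mst1KO replicate 1 or WT replicate 3 ended the call of Cd163l1 (0.0785 and 0.0698).

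**Figure D2:**
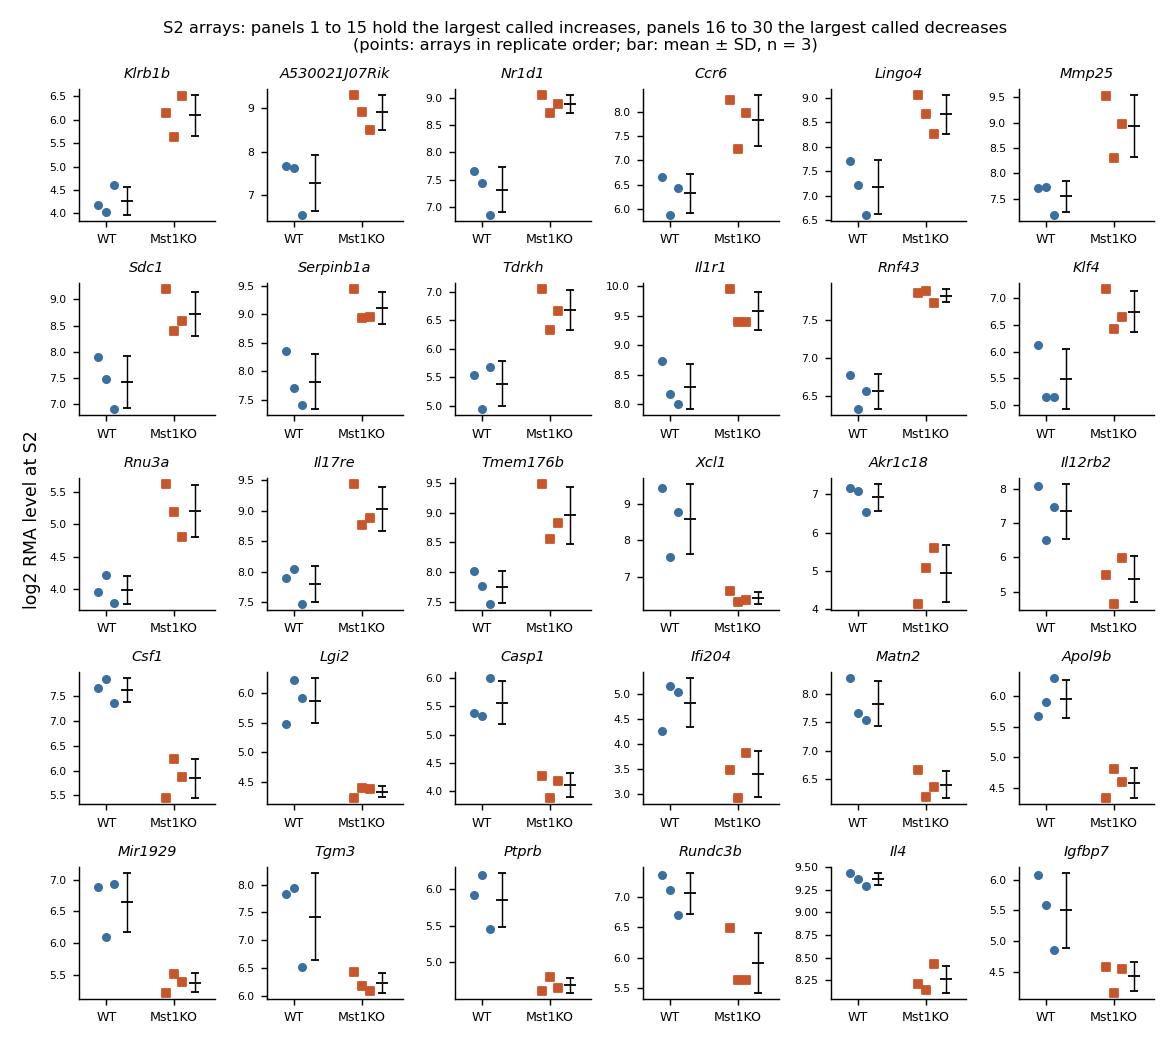
Level of 30 genes on the 6 S2 arrays in log2 RMA units (y axis, a separate scale in each panel), WT as circles and Mst1KO as squares in replicate order, with the mean and SD (n = 3) beside them. In every panel the 3 Mst1KO arrays lie apart from the 3 WT arrays, as the choice of genes requires; the gap is narrow against the spread for Tgm3, Rundc3b and Klf4 and wide for Il4, Rnf43 and Csf1.

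NKT1 genes went mostly the other way. Of 27 listed, 25 were tested: 3 fell (12%, against 0.453% of all genes lower) and none rose, 18 were below 0 (46.6% of all genes), and the median difference was -0.26. The Mst1KO arrays all lay below the WT arrays in 5 genes (7.12% of all genes) and all above in 3 (9.68%). The summed linear level ran from 9402 to 13194 in WT and from 10672 to 11884 in Mst1KO, so the ranges overlap. Xcl1, the chemokine that draws XCR1+ dendritic cells, measured 9.45, 7.54 and 8.78 in WT and 6.60, 6.29 and 6.34 in Mst1KO (-2.18 ± 0.34, adjusted p = 0.00589). WT replicate 2 was the lowest WT array and still lay well above all Mst1KO arrays. Il12rb2 measured 8.08, 6.50 and 7.46 in WT and 5.49, 4.65 and 5.99 in Mst1KO (-1.97 ± 0.33, adjusted p = 0.00808). Ccl5, the chemokine RANTES, measured 8.60, 7.42 and 7.88 in WT and 6.97, 6.79 and 7.07 in Mst1KO (-1.03 ± 0.24, adjusted p = 0.0474). The call of Ccl5 was lost without any of WT replicates 1 and 3 and Mst1KO replicates 1, 2 and 3 (adjusted p 0.0809 to 0.134), and without WT replicate 2 the list had 6 lower calls in place of 3.

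The other NKT1 genes did not pass. Gzmb, the cytotoxic protease granzyme B, measured 8.76, 6.06 and 8.26 in WT and 6.07, 6.28 and 6.33 in Mst1KO (-1.47 ± 0.48, adjusted p = 0.161). WT replicate 2 sat at the level of the Mst1KO arrays, so the groups overlap. Slamf7, a SLAM-family receptor, had the same pattern at 8.47, 6.96 and 8.53 against 6.79, 5.98 and 7.09 (-1.37 ± 0.32, adjusted p = 0.0508). Tbx21, which encodes T-bet, the regulator of NKT1 cells, differed by -0.38 ± 0.15 (adjusted p = 0.268). Ly6c2, a surface protein of the Ly6 family, stood on the other side, at 10.55, 10.35 and 10.90 in WT and 10.98, 11.31 and 11.47 in Mst1KO (0.65 ± 0.16, adjusted p = 0.0564). So did Il12rb1 (0.40 ± 0.11, adjusted p = 0.103) and Il18rap (0.39 ± 0.25, adjusted p = 0.551), both with arrays apart. All 14 genes of the cytotoxic granule list were tested and none was called, with a median of -0.14 and 11 below 0 (46.6% of all genes).

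Among NKT2 genes the cytokines fell, while none of the regulators was called. Of 17 tested 3 fell (17.6%, against 0.453% of all genes lower) and none rose, and the median was 0.01. Il4 measured 9.44, 9.37 and 9.30 in WT and 8.20, 8.15 and 8.43 in Mst1KO, a difference of -1.11 ± 0.12 (adjusted p = 0.000357). This is a 2.16-fold lower signal, and the groups lie far apart. Il13, the second cytokine of type 2 immunity, measured 7.54, 7.10 and 7.47 in WT and 6.17, 6.61 and 6.71 in Mst1KO (-0.87 ± 0.18, adjusted p = 0.0221). Izumo1r, the folate receptor family protein FR4, measured 10.72, 10.68 and 10.98 in WT and 10.02, 10.19 and 10.41 in Mst1KO (-0.59 ± 0.14, adjusted p = 0.0477). For both, the groups do not overlap. Gata3, the regulator of type 2 cytokines, differed by 0.09 ± 0.08 (adjusted p = 0.688) and Zbtb16 by -0.00 ± 0.12 (adjusted p = 0.998). Plac8 (-0.65 ± 0.24, adjusted p = 0.24) and the inhibitory receptor Pdcd1, PD-1 (-0.51 ± 0.15, adjusted p = 0.119), lay below 0 without passing. Izumo1r and Il13 were lost without WT replicate 1 (both 0.0666), without WT replicate 3 and without Mst1KO replicate 1 (0.0916 to 0.169), and Izumo1r also without WT replicate 2 (0.0720) or Mst1KO replicate 2 (0.112).

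Among secreted factors 5 genes fell. The list of 31 cytokines and chemokines had 20 members above the filter on dim genes, of which 5 fell (Il4, Csf1, Xcl1, Il13 and Ccl5, 25.0%, against 0.453% of all genes lower) and none rose. Xcl1 and Ccl5 are also on the NKT1 list, and Il4 and Il13 on the NKT2 list, so these are the same calls. The median of the 20 was -0.00, near that of all genes. Csf1, which supports macrophages, measured 7.66, 7.84 and 7.37 in WT and 5.44, 6.23 and 5.86 in Mst1KO (-1.78 ± 0.20, adjusted p = 0.000458). The groups lie well apart. Without WT replicates 1 or 3 or Mst1KO replicate 1, Il13 and Ccl5 were lost and 3 of the 5 were called.

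Of 43 cytokine receptor and STAT genes, 4 rose and 1 fell, against 0.714% and 0.453% of all genes. The median was 0.17, and 29 lay above 0 (53.4% of all genes). Of the 4, Il17re and Il1r1 are also on the NKT17 list, and Il12rb2, which fell, is on the NKT1 list. Beside Il17re, Il1r1 and Il12rb2, Socs3, a feedback inhibitor of cytokine signalling, measured 5.68, 5.64 and 5.68 in WT and 6.11, 6.27 and 6.06 in Mst1KO (0.48 ± 0.10, adjusted p = 0.0219). Tgfbr2, the type 2 receptor for TGF-beta, rose by 0.34 ± 0.08 (adjusted p = 0.0475). Pmepa1, a TGF-beta-induced inhibitor of SMAD signalling, went the opposite way, at 6.93, 6.78 and 7.03 in WT and 6.06, 6.09 and 6.33 in Mst1KO (-0.75 ± 0.15, adjusted p = 0.0191). The arrays of these genes did not overlap. Tgfbr2 lost its call in all 6 fits without an S2 array, Socs3 without WT replicates 2 or 3 or Mst1KO replicates 1 or 2, and Pmepa1 without WT replicate 3 or Mst1KO replicates 1 or 2 (adjusted p at least 0.0509 in each).

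**Figure D3:**
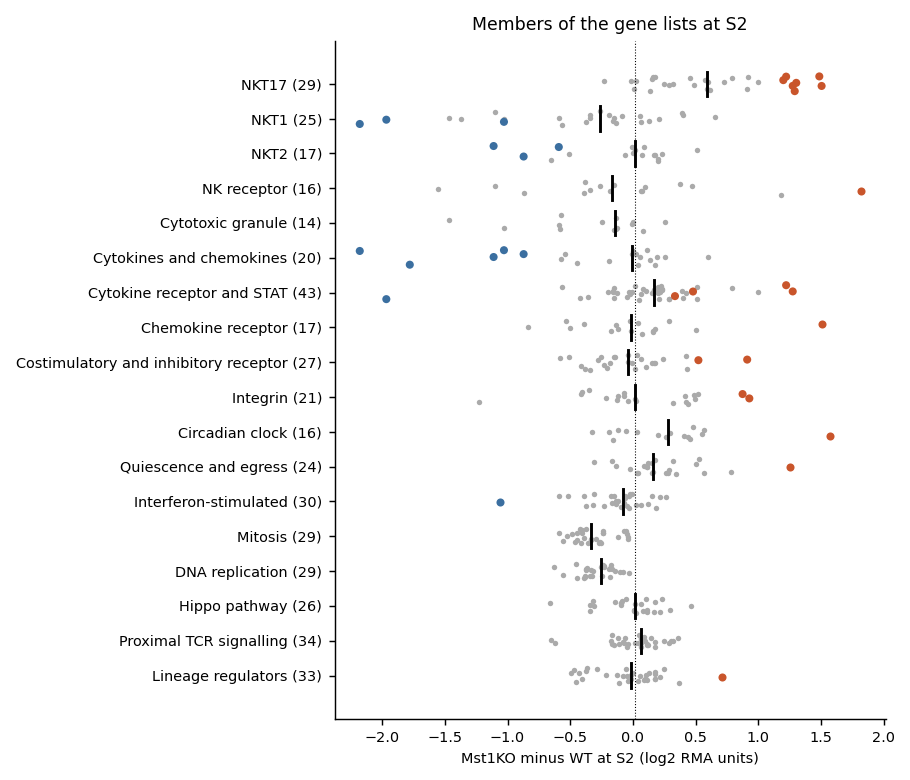
Difference between Mst1KO and WT at S2 in log2 RMA units (x axis) for the tested members of 18 gene lists (rows, number tested in brackets); coloured points were called (orange higher, blue lower), grey points were not, the black bar is the list's median and the dotted line the median of all genes, 0.014. The NKT17 members lie to the right with a median of 0.59, and every mitosis and DNA replication member lies to the left of 0 with none called.

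NK receptors gave 1 call of 16 tested (6.25%, against 0.714% of all genes higher), in Klrb1b, which encodes the inhibitory receptor NKR-P1B. It measured 4.18, 4.03 and 4.60 in WT, below the array median, and 6.15, 5.62 and 6.49 in Mst1KO (1.82 ± 0.24, adjusted p = 0.00139). Klrb1f, a related receptor, lay in the same direction at 6.75, 6.53 and 6.80 against 7.68, 7.84 and 8.11 (1.19 ± 0.31, adjusted p = 0.0781). Klrb1c, the NK1.1 gene of the same cluster, did not (5.40, 4.97 and 5.45 against 5.44, 4.62 and 4.75). These genes are paralogues, so each is uncertain as a single gene. The median of the 16 was -0.17, and 11 of them had a mean under 5. Klrb1f is also on the list of NK cell and innate lymphoid markers, of which none of 6 tested was called. Their summed linear level ran from 274 to 347 in WT and from 433 to 505 in Mst1KO. Klrb1f was the brightest of the 6 (means 6.69 and 7.88), so this sum is not separate from its own value. Ncr1 (NKp46) had means of 4.09 and 4.46. Of the 6, 4 lay above 0 and 2 below, Fcer1g (-0.02) and Cd244a (-0.38). The part of such cells in the Klrb1b result was not tested.

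Genes of pathogen sensing and NF-kB signalling were among the called genes on both sides; apart from Casp1, Ifi204, Apol9b and Iigp1 they were chosen after their values were seen. Tlr1, a Toll-like receptor for bacterial lipopeptides, measured 8.56, 8.48 and 8.75 in WT and 9.57, 9.67 and 9.75 in Mst1KO (1.07 ± 0.12, adjusted p = 0.000458). The gap between the groups was larger than the range within each. Irak3, an inhibitor of Toll-like receptor signalling, rose by 1.04 ± 0.16 (adjusted p = 0.00589) and Map3k14, the kinase NIK of the alternative NF-kB pathway, by 0.65 ± 0.10 (adjusted p = 0.00568). Rel, the NF-kB subunit c-Rel, measured 9.34, 9.19 and 9.30 in WT and 8.91, 8.83 and 8.57 in Mst1KO (-0.51 ± 0.11, adjusted p = 0.0313).

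Casp1, the protease of the inflammasome, measured 5.38, 5.32 and 6.00 in WT and 4.27, 3.87 and 4.19 in Mst1KO (-1.45 ± 0.25, adjusted p = 0.0102). Its Mst1KO level lay below the array median, so the true ratio may be larger. Ifi204 (-1.43 ± 0.32, adjusted p = 0.0398) and Apol9b (-1.38 ± 0.23, adjusted p = 0.00785) are interferon-inducible, belong to families with near-identical copies and are uncertain as single genes. Nlrc5, the activator of MHC class I genes, fell by 0.46 ± 0.10 (adjusted p = 0.0316). Of 30 genes on the interferon-stimulated list 1 fell (3.33%, against 0.453% of all genes lower), the GTPase Iigp1. It measured 8.03, 7.44 and 8.46 in WT and 6.93, 6.70 and 7.12 in Mst1KO (-1.06 ± 0.25, adjusted p = 0.0492). The median of the list was -0.08, with 23 of 30 below 0 (46.6% of all genes). Nlrc5, Rel and Iigp1 were each called without WT replicate 2 only among the 6 fits without an S2 array, Ifi204 was lost in 4, and Casp1 without WT replicate 3 (0.0502) and Apol9b without Mst1KO replicate 1 (0.0515) fell just short.

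The genes of the circadian clock list were led by Nr1d1, which measured 7.65, 7.43 and 6.86 in WT and 9.05, 8.73 and 8.89 in Mst1KO (1.57 ± 0.20, adjusted p = 0.00139). REV-ERBα is known to repress Arntl, which lay higher in Mst1KO without passing, at 9.53, 9.51 and 9.42 in WT and 9.79, 9.75 and 9.81 in Mst1KO (0.30 ± 0.12, adjusted p = 0.275). Nr1d1 was the 1 call among 16 clock genes (6.25%, against 0.714% of all genes higher). Their median was 0.28, with 11 above 0 (53.4% of all genes). Clock, the partner of BMAL1, differed by 0.57 ± 0.13 (adjusted p = 0.0508) and the repressor Cry1 by 0.55 ± 0.14 (adjusted p = 0.072), both with arrays apart. The hour of sampling was not given in the sources used here.

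The transcription factor Klf4, known to restrain T cell proliferation, measured 6.13, 5.16 and 5.16 in WT and 7.15, 6.41 and 6.65 in Mst1KO (1.25 ± 0.22, adjusted p = 0.0106). Klf6 measured 8.91, 8.46 and 8.80 in WT and 9.62, 9.79 and 9.78 in Mst1KO (1.01 ± 0.14, adjusted p = 0.00275), and Klf7 rose by 0.59 ± 0.13 (adjusted p = 0.0353); both were chosen after their values were seen. Klf2, which drives S1pr1 and thymic exit, missed the threshold at 6.34, 6.55 and 6.56 against 7.11, 7.25 and 7.46 (0.79 ± 0.21, adjusted p = 0.0736). Of 24 genes of quiescence and egress 1 rose (Klf4, 4.17%, against 0.714% of all genes higher) and none fell. Their median was 0.16, and 20 lay above 0 (53.4% of all genes). Cdkn1b, the cell cycle inhibitor p27, differed by 0.50 ± 0.12 (adjusted p = 0.0601) and S1pr1, the receptor that guides exit from the thymus, by 0.57 ± 0.16 (adjusted p = 0.0999), each with all 3 Mst1KO arrays above the WT arrays. Klf4 was lost without WT replicate 3 or Mst1KO replicate 1, which left the list with 0 calls.

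Among 33 lineage regulators Prdm1, the repressor BLIMP-1, was the 1 call (3.03%, against 0.714% of all genes higher). It measured 5.11, 5.43 and 5.41 in WT and 6.23, 6.01 and 5.84 in Mst1KO (0.71 ± 0.14, adjusted p = 0.0196). Of 35 immediate early and signal response genes, the AP-1 member Fosb rose (0.80 ± 0.18, adjusted p = 0.0474) and the phosphatase Dusp2 fell (-0.44 ± 0.10, adjusted p = 0.0457). These calls were 5.71% of the list, against 1.17% of all genes, and its median was -0.05. Prdm1 without WT replicate 1 or Mst1KO replicates 1 or 2, and Fosb, Dusp2 and Klf7 in 5 of the 6 fits (adjusted p 0.0509 to 0.171).

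Of 21 integrin chains 2 rose (9.52%, against 0.714% of all genes higher) and none fell, and the median of 0.02 was near that of all genes. Itga4, the α4 chain that pairs with β1 or β7 and binds VCAM-1, measured 8.07, 8.30 and 8.26 in WT and 8.96, 9.15 and 9.15 in Mst1KO (0.88 ± 0.15, adjusted p = 0.00808). The arrays of each genotype lay close together and far from the other's. Itgb7, its partner, differed by 0.48 ± 0.13 (adjusted p = 0.0875) and Itga6, a laminin receptor chain, by 0.44 ± 0.11 (adjusted p = 0.0657). Itgax (CD11c) rose from 3.71, 4.20 and 4.03, below the array median, to 4.89, 5.10 and 4.74 (0.93 ± 0.18, adjusted p = 0.0191). Its Mst1KO arrays lay near the S2 array medians of 4.83 to 4.87, so it is a dim gene in both genotypes. The level filter needed 3 of the 18 arrays above their median, and no WT array at S2 was. Its entry into the test thus leaned on other arrays, which can favour a rise in Mst1KO.

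CD11c is also a marker of dendritic cells, and 1 of the 14 tested macrophage and dendritic markers was called (Itgax, 7.14%, against 0.714% of all genes higher). This is the same call as that on the integrin list. Lyz2, the lysozyme of macrophages, measured 4.78, 5.22 and 4.82 in WT and 6.20, 6.31 and 6.21 in Mst1KO (1.30 ± 0.34, adjusted p = 0.0713). The summed linear level of the 14 ran from 1664 to 1923 in WT and from 1933 to 2203 in Mst1KO, without overlap. Cst3 was the brightest of the 14 (means 9.93 and 10.09), so the sum leans on its level. It was not called (0.17 ± 0.09, adjusted p = 0.482), and neither was H2-Ab1 (0.66 ± 0.48, adjusted p = 0.614). The sum therefore does not show a rise of the markers in general. Adgre1, Cd68, Itgam and Fcer1g had lower means in Mst1KO. The part of myeloid RNA in the Itgax, Lyz2 and Tlr1 values was not tested.

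Other adhesion and surface genes were called as well, chosen after their values were seen except for Mmp25, Tnfrsf25, Cd96 and Thy1. Mmp25, a membrane-anchored metalloproteinase, measured 7.71, 7.74 and 7.18 in WT and 9.53, 8.31 and 8.97 in Mst1KO (1.39 ± 0.24, adjusted p = 0.0106). Adam12, a membrane metalloproteinase, rose by 1.18 ± 0.15 (adjusted p = 0.00139) and Adam8 by 0.75 ± 0.16 (adjusted p = 0.0293). Vcl, vinculin, which ties integrins to actin, rose by 0.81 ± 0.17 (adjusted p = 0.0263). Tnfrsf25, the death receptor DR3 for TL1A, measured 8.34, 8.13 and 7.89 in WT and 9.19, 8.87 and 9.04 in Mst1KO (0.91 ± 0.18, adjusted p = 0.0204). Cd96, an inhibitory receptor of T and NK cells, rose by 0.52 ± 0.11 (adjusted p = 0.0345). It and Tnfrsf25 were the calls among 27 costimulatory and inhibitory receptors (7.41%, against 0.714% of all genes higher).

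S100a4 rose by 0.64 ± 0.13 (adjusted p = 0.0204) and S100a6 by 0.60 ± 0.11 (adjusted p = 0.0135), both calcium-binding proteins of the cytoskeleton. Lgals1, galectin-1, rose by 0.38 ± 0.09 (adjusted p = 0.049), Anxa6, a membrane-binding annexin, by 0.46 ± 0.09 (adjusted p = 0.0219) and Thy1, the T cell antigen CD90, by 0.46 ± 0.10 (adjusted p = 0.0433). Without Mst1KO replicate 1, 13 of the adhesion, surface and TGF-beta genes named here lost their call, without WT replicate 3 it was 10, without Mst1KO replicate 2 or WT replicate 2 it was 7, and without WT replicate 1 or Mst1KO replicate 3 it was 6 (adjusted p 0.0517 to 0.165). Itga4 and Adam12 were not among them.

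Of the remaining genes with the largest increases, A530021J07Rik, a transcript of unknown function, measured 7.67, 7.62 and 6.53 in WT and 9.30, 8.92 and 8.49 in Mst1KO (1.63 ± 0.26, adjusted p = 0.00589). Rnf43, a ubiquitin ligase that removes WNT receptors, measured 6.79, 6.33 and 6.58 in WT and 7.87, 7.88 and 7.73 in Mst1KO (1.26 ± 0.13, adjusted p = 0.000357). It had the lowest p of all genes. Tdrkh, a protein of the piRNA pathway, rose by 1.29 ± 0.25 (adjusted p = 0.018), and Rnu3a, a small nucleolar RNA with repeated copies in the genome, by 1.23 ± 0.25 (adjusted p = 0.0262) from a dim level of 3.98.

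Among the remaining decreases, Akr1c18 measured 7.17, 7.08 and 6.52 in WT and 4.14, 5.08 and 5.60 in Mst1KO (-1.98 ± 0.36, adjusted p = 0.0124). The Mst1KO arrays spread over more than 1 unit but stayed below all WT arrays. Matn2, a matrix protein, measured 8.27, 7.65 and 7.54 in WT and 6.66, 6.19 and 6.36 in Mst1KO (-1.42 ± 0.21, adjusted p = 0.00497). Ptprb, a receptor phosphatase of endothelium, measured 5.92, 6.19 and 5.46 in WT and 4.61, 4.80 and 4.64 in Mst1KO (-1.17 ± 0.18, adjusted p = 0.00555), and Igfbp7, a secreted binding protein of insulin-like growth factors, fell by 1.08 ± 0.21 (adjusted p = 0.0201). Of other endothelial and stromal markers none of 7 tested was called, and their summed linear level ran from 1077 to 1108 in WT and from 1046 to 1182 in Mst1KO. Lgi2 fell by 1.54 ± 0.27 (adjusted p = 0.0106), Tgm3, a transglutaminase, by 1.19 ± 0.27 (adjusted p = 0.0404) and Rundc3b by 1.14 ± 0.26 (adjusted p = 0.0412).

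Both Matn2 and Stk3 lie on chromosome 15, where 19 genes around Stk3 were tested, with a median of -0.01. Matn2 was the 1 call (5.26%, against 0.453% of all genes lower). Laptm4b, a lysosomal membrane protein of that stretch, measured 9.01, 8.49 and 8.26 in WT and 8.77, 7.99 and 8.32 in Mst1KO (-0.23 ± 0.21, adjusted p = 0.713), while at S1 it differed by -2.60 ± 0.21 (adjusted p = 1.83e-05). Of the other genes with large changes and Mir1929, Tgm3 was lost in all fits but that without WT replicate 3, Rundc3b, Rnu3a and Mir1929 in 4 of 6, Igfbp7 in 3, Tdrkh in 2, and Lgi2 and Akr1c18 without Mst1KO replicate 1 (adjusted p up to 0.141).

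No Hippo pathway gene was called. Of 26 tested members, Stk4 included, none passed, the median was 0.01, and 15 lay above 0 (53.4% of all genes). The downstream kinase Lats2 came nearest, at 6.68, 6.82 and 7.06 in WT and 7.51, 7.13 and 7.31 in Mst1KO (0.46 ± 0.12, adjusted p = 0.0774), followed by Yap1, the coactivator, which was dim (-0.32 ± 0.11, adjusted p = 0.179). At an unadjusted p under 0.05 the share over all genes was 13.4%, so such a value is frequent here. Of 25 RASSF, RAP1 and DOCK adhesion genes and 34 genes of proximal T cell receptor signalling none was called either, with medians of 0.05 and 0.06. Cd4, which drives the Cre, differed by -0.35 ± 0.14 (adjusted p = 0.28).

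The listed mitosis and DNA replication genes lay lower in Mst1KO, and none of them was called. All 29 tested mitosis genes and all 29 tested DNA replication genes had a difference below 0, against 46.6% of all genes, with medians of -0.33 and -0.25. The Mst1KO arrays lay wholly below the WT arrays in 12 and 11 of them (7.12% of all genes). These genes move together from cell to cell, so they are not 29 separate observations. Hmmr, a spindle protein, differed by -0.59 ± 0.18 (adjusted p = 0.137), Cenpf, a kinetochore protein, by -0.53 ± 0.16 (adjusted p = 0.137), and Pole, the catalytic subunit of DNA polymerase epsilon, by -0.56 ± 0.15 (adjusted p = 0.076). The summed linear level of the mitosis genes ran from 9877 to 13504 in WT and from 8067 to 10185 in Mst1KO, so the ranges overlap. Without WT replicate 3 the mitosis median was -0.18 and the DNA replication median -0.16, with 23 and 27 members below 0. Without WT replicate 1 they were -0.43 and -0.42, and 1 mitosis gene was called. Outside the lists, and chosen after their values were seen, the spindle gene Ckap2 (-0.61 ± 0.11, adjusted p = 0.0137), the replication gene Atad5 (-0.74 ± 0.15, adjusted p = 0.0243) and the mismatch repair gene Msh6 (-0.62 ± 0.13, adjusted p = 0.0323) fell. Ckap2 was lost without WT replicate 3 or Mst1KO replicate 2, Atad5 without WT replicate 2 or Mst1KO replicates 1 or 2, and Msh6 in all fits but that without Mst1KO replicate 3 (adjusted p 0.0520 to 0.115).

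No call was made among 31 MYC and ribosome biogenesis genes, 19 glycolysis genes, 31 genes of the mitochondrial respiratory chain, 20 genes of sterol and fatty acid synthesis and 20 of the BCL2 family, and their medians lay between -0.05 and 0.05. Metabolic genes outside these lists were called, among them, chosen after their values were seen, Acss2, an acetyl-CoA synthetase (0.76 ± 0.15, adjusted p = 0.0191), and Lpcat3, a phospholipid acyltransferase (0.49 ± 0.10, adjusted p = 0.0191). Acss2 was lost without WT replicates 1 or 2 or Mst1KO replicates 2 or 3, and Lpcat3 without WT replicate 3 or Mst1KO replicates 1 or 3 (adjusted p 0.0549 to 0.0855). Among markers of other cells, none was called of 7 of conventional mature T cells, 5 of double-positive thymocytes, 3 of B cells, 2 of granulocytes and mast cells and 1 of erythroid cells. The double-positive sum ran from 379 to 487 in WT and from 420 to 499 in Mst1KO. The summed linear level of the 3 B cell markers ran from 971 to 1322 in WT and from 1368 to 1636 in Mst1KO, without overlap. Most of it was Ighm, at 10.25, 10.30 and 9.85 in WT and 10.37, 10.60 and 10.61 in Mst1KO (0.40 ± 0.15, adjusted p = 0.249), while Cd79b and Cd22 had means under 5.3 in both genotypes and 6 of the 11 listed markers were too dim to test. The part of B cells in the results was not tested.

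Set beside the other stages, the S2 difference was larger in number than that at S1 and smaller than that at S3. The same test called 43 genes at S1 (0.33%; 0.261% higher, 0.0691% lower) and 443 at S3 (3.4%; 2.35% higher, 1.05% lower). Of the 152 genes called at S2, 19 (12.5%) were called in the same direction at S1, which is 44.2% of the S1 calls, and 55 (36.2%) at S3, which is 12.4% of the S3 calls. None was called in the opposite direction. There were 10 genes called alike at all 3 stages: Il4, Nr1d1, Tlr1, Itga4, Klf6, Tnfrsf25, Anxa6, Spice1, Serinc3 and Atp8a2. The stages may share mice, so they are not independent repeats.

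For 88 genes (45 higher, 43 lower) the call was made at S2 and at neither other stage, yet a missed threshold elsewhere does not make a difference particular to S2. Tested directly, the S2 difference departed from that at S3 in 48 genes (0.368%), 11 of them among the 152, and from that at S1 in 2 genes (0.0153%, with 6.77% at an unadjusted p under 0.05), of which Rnf43 is one. Rnf43 differed by -0.43 ± 0.13 at S1, by 1.26 at S2 and by 0.45 ± 0.13 at S3, and its S2 minus S1 departure was 1.69 ± 0.18 (adjusted p = 0.00108). Klf4 differed by 1.25 at S2 and by -0.40 ± 0.22 at S3, a departure of 1.65 ± 0.31 (adjusted p = 0.0248). Matn2 fell at S1 (-2.26 ± 0.21) and S2 but not at S3 (0.23 ± 0.21), and the S2 minus S3 departure was -1.65 ± 0.30 (adjusted p = 0.0186). Mir1929 lay at 0.11 ± 0.25 at S1 and 0.89 ± 0.25 at S3, a departure from S3 of -2.16 ± 0.35 (adjusted p = 0.0114).

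**Figure D4:**
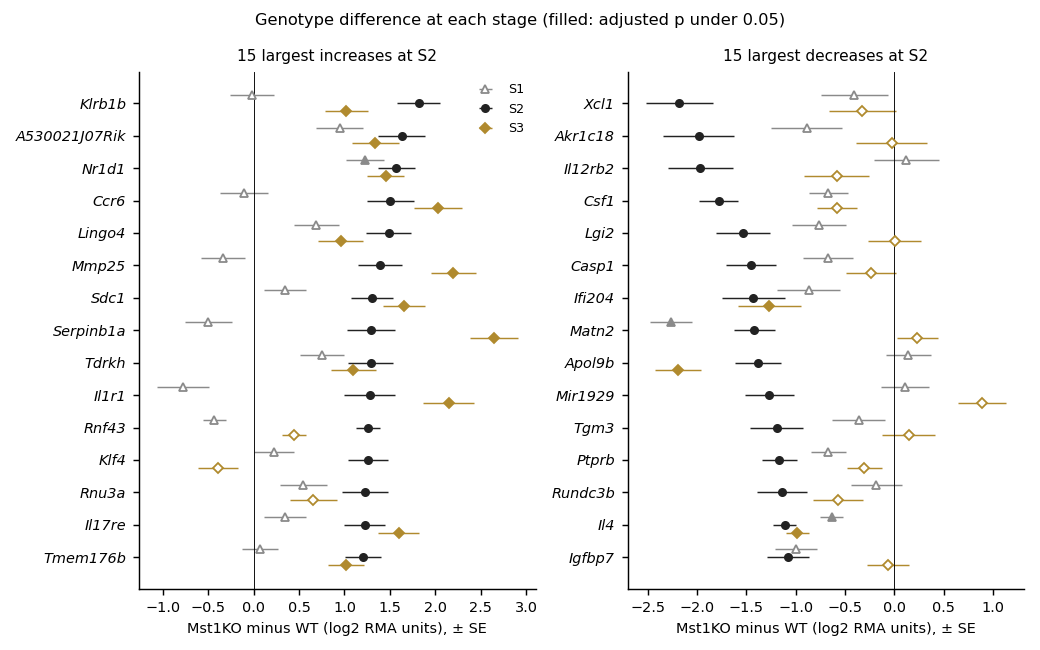
Difference between Mst1KO and WT at S1, S2 and S3 in log2 RMA units with its SE (x axis) for the 15 largest called increases (left) and decreases (right) at S2; filled symbols had an adjusted p under 0.05. Nr1d1 and Il4 are filled at all 3 stages, the NKT17 genes Ccr6, Sdc1, Il17re, Serpinb1a and Il1r1 at S2 and S3, and Xcl1, Il12rb2, Csf1 and Akr1c18 at S2 alone, though the S2 minus S1 and S2 minus S3 tests did not call those last 4.

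The median difference of the NKT17 list went from 0.06 at S1 to 0.59 at S2 and 0.58 at S3. No gene was higher at S1, 7 of 29 at S2 and 15 at S3, where 1 was lower. Over all genes 0.261% were higher at S1, 0.714% at S2 and 2.35% at S3, where 1.05% were lower. Serpinb1a differed by -0.50 ± 0.26 at S1 and rose by 2.64 ± 0.26 at S3, and Ccr6 differed by -0.10 ± 0.26 and rose by 2.03 ± 0.26. None of the 29 passed the test of S2 against S1 (0.0153% of all genes), and 2 passed that of S2 against S3 (0.368%). The cell cycle lists ran differently, with a mitosis median of -0.16 at S1, -0.33 at S2 and 0.55 at S3. At S3 3 of the 29 mitosis genes were higher, against 2.35% of all genes. Of the 29 mitosis genes 1, Hmmr, passed the test of S2 against S3 (-1.27 ± 0.26, adjusted p = 0.0396), as did 0.368% of all genes. The quiescence and egress list had a median of 0.32 at S1, of 0.16 at S2 and of -0.03 at S3.

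**Figure D5:**
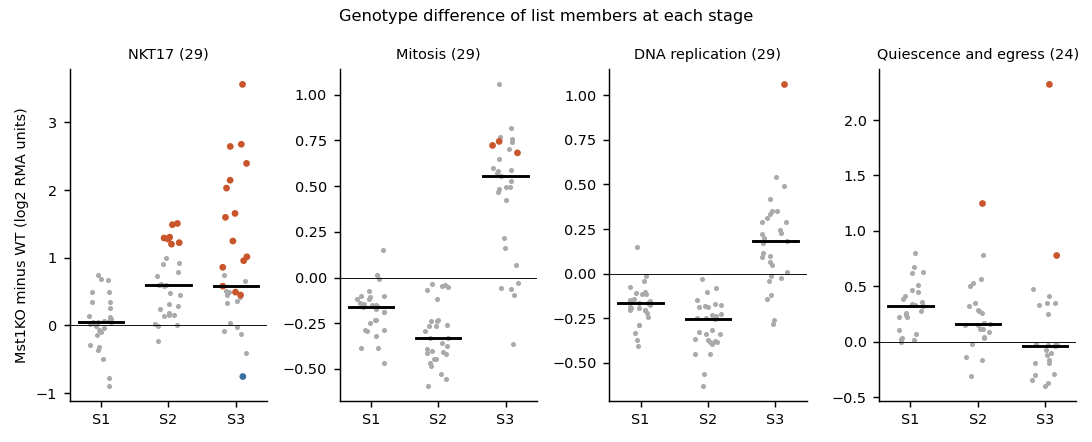
Difference between Mst1KO and WT in log2 RMA units (y axis, a separate scale in each panel) at S1, S2 and S3 for the tested members of 4 gene lists; orange and blue points were called higher or lower, grey points were not, and bars are medians. The NKT17 median is 0.06, 0.59 and 0.58 at S1, S2 and S3, and the mitosis median is -0.16, -0.33 and 0.55.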

How the data were processed

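Affymetrix MoGene-2_0 arrays measured RNA of sorted thymic iNKT cells, 3 for each of 2 genotypes at 3 stages. The deposited values are log2 signals for 41345 probe sets on 18 arrays, for which the submitters' processing notes name RMA and version 1.1 of the Affymetrix Expression Console, and were used as deposited. Platform annotation names 23521 probe sets with 1 gene symbol, 1814 with several and 16010 with none; only the first were used for genes. A probe set was kept if 3 or more of the 18 arrays had it above the array median, and the brightest per gene was used. limma 3.58.1 (R 4.3.3) fitted a mean for each of 6 groups and shared the spread over all arrays, so S2 errors borrow from S1 and S3. Contrasts were Mst1KO minus WT at each stage and the differences of these between stages, with Benjamini-Hochberg adjustment over 13034 genes. The number of arrays limits the precision. The method was tested on simulated data. No 2 arrays held identical values.

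Genes named are Stk4, the 15 largest called increases and decreases with arrays apart, the members of the gene lists with the lowest p, and the 8 lowest-p genes of each stage contrast; others are said to be chosen after their values were seen. The members and lists were chosen with earlier results of these data known. The deviations of same-numbered arrays correlated at 0.0346 to 0.0591 between genotypes and at -0.0148 to 0.206 between stages, with 3 of 12 over 0.1. These values are low, yet arrays correlated best with their own number in 3 of 3 cases between genotypes and 11 of 12 between stages. The main fit used no block, so it did not model anything shared by same-numbered arrays, which bears on the genotype and stage contrasts. Alternatives changed the filter, normalization, variance model, probe set summary, arrays fitted and each S2 array in turn.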

Additional observations from a re-analysis of the deposited data

Results flagged for a closer look

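The genotype difference at S2 was tested against that at S1 and at S3 with limma, and 2 and 48 genes passed after adjustment over all genes. Values below are the S2 difference minus that of the other stage, in log2 units; no cause was tested.

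Against S1, Rnf43 departed by 1.69 and Laptm4b by 2.37, the latter because it fell at S1 (-2.60) and differed little at S2 (-0.23). Against S3, genes whose difference was higher at S3 than at S2 gave negative departures: Pdlim1 (-1.49), the transcription factor Myb (-1.87), S1pr1 (-1.75), the IL-25 receptor chain Il17rb (-1.86), the integrin chain Itgb3 (-1.36), 1700027F09Rik (-1.80), Tlr1 (-1.14), the NKT17 gene Emb (-2.06), Itga4 (-1.05) and Lgals1 (-0.63). Of these only Tlr1, Itga4 and Lgals1 were called at S2, and Myb lay below 0 there (-0.41). S1pr1 rose by 2.32 at S3 and differed by 0.57 at S2. Ifitm1, an interferon-induced membrane protein, fell at S3 (-2.21) and not at S2 (0.07), a departure of 2.28. Rubcnl departed by 1.54 and Atp8a2, a phospholipid flippase that fell at both stages, by 1.45.

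Of the 11 genes called at S2 whose departure from S3 was also called, those on the other side of 0 at S3 were Mir1929 (-2.16), Matn2 (-1.65), Ddx43 (-0.96), Izumo1r (-0.94), Klf4 (1.65), Mcfd2 (0.95) and 1600014C10Rik (0.75). None of these 7 was called at S3.

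Probe sets with several gene symbols were outside the gene comparison. Of 1021 tested, 5 were called (0.49%), 4 higher and 1 lower, among them Cd72;Tesk1 (1.03), Jaml;Gm10684 (1.01) and Trf;Srprb (-1.27). Of 8443 probe sets with no symbol none was called by limma, with 710 at an unadjusted p under 0.05.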

How the results depend on the processing

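Of the 152 calls at S2, 27 held in all 6 fits without an S2 array, 46 were lost in 1 to 3 and 79 in 4 to 6. No called gene reversed, which arrays that lie apart require in these 6 fits. The total was 248 with a variance trend and robust fit (152 higher, 96 lower), 97 with array weights (35 lower), 104 without a filter on level (37 lower), 4 with only the S2 arrays (3 higher, 1 lower) and 0 against a 1.5-fold change (0 higher, 0 lower; 65 at an unadjusted p under 0.05). Leaving out an S2 array gave 39 to 160 calls, 20 to 107 higher and 19 to 56 lower. Departures of S2 from S1 numbered 0 against 1.5-fold and 2 to 6 without an array, and those from S3 numbered 1 against 1.5-fold, 15 with only the groups compared and 34 to 69 without an array. With the replicate number as a block, 177 genes were called at S2, 137 of them among the 152, and 4 departed from S1. Each array correlated best with its own number between genotypes in 3 of 3 cases. The cause of these shifts was not tested.

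Differences near 0 changed sign. Zbtb16 was 9.44e-05 after repeated quantile normalization, 0.00749 with median centring and 0.00239 with array weights. Without an array it ran from -0.0111 to 0.0151, Il17a from -0.13 to 0.22, Cd24a from -0.091 to 0.25, Ifitm1 from -0.12 to 0.21 and 1700027F09Rik from -0.12 to 0.15.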

Other observations

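Further genes called whichever S2 array was left out, chosen after their values were seen, included signalling and cytoskeletal genes. Fhl2, a LIM-domain scaffold protein, had means of 7.93 in WT and 6.86 in Mst1KO (-1.07 ± 0.18). Inpp4b, a phosphoinositide phosphatase, differed by -0.60 ± 0.09. On the other side, Tjp3, a tight junction scaffold, rose by 0.89 ± 0.15, Snai3, a SNAIL-family repressor, by 0.74 ± 0.11, Fbxo17, an F-box protein, by 0.87 ± 0.11, and Eif4e3, a cap-binding protein, by 0.69 ± 0.10 (limma, n = 3 arrays a genotype).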
